A study of Mus musculus with 21 samples.

Results

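The Myc family and the Max network were followed in 7 mouse glioma stem-like cell lines, that is, cultures derived from the brain of genetically engineered tumour-model mice. The 10 genes were found by symbol among 54532 genes of the expression table, and all 10 were found: the Myc paralogues Myc, Mycn and Mycl, their partner Max, the Mxd repressors Mxi1, Mxd1, Mxd3 and Mxd4, and the larger Max partners Mnt and Mga. The lines labelled IDH1 mutant were PIC144-1, PIC144-3, PIC496-4 and PIC496-3, and the lines labelled IDH1 WT were PC134-0, PC308-1 and PC326-1. Messenger RNA of each line was sequenced in 3 libraries, 21 in all, and the labels give no treatment. All lines grew on low-adherence plates with EGF and bFGF at 5% oxygen. The labels name the genotype only at IDH1 and give no other allele, driver or animal of origin, so lines whose names share a number could come from the same mouse, which the labels do not state.

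MYC proteins are transcription factors that bind DNA as pairs with MAX, mostly at the E-box CACGTG, and raise transcription of genes for ribosome assembly, metabolism and the cell cycle. MXD proteins, MNT and MGA pair with the same MAX and bring repressor complexes to the same DNA element, so the network is usually described as a balance of activating and repressing partners. Mycn is the paralogue of the developing brain and Myc the more widely used one, and both are drivers of brain tumours when present in excess.

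The family was selected on measured values of these libraries: Myc in the mutant lines, against Myc in the WT lines. Levels of the members between genotypes are therefore given as a description, with no test. Tests below are of differences that the selection did not use, between lines of the same genotype and in genes outside the family. Libraries of a line are called biological replicates by the labels without saying what was repeated, so tests over libraries measure the spread between libraries, which may be technical. Levels are in FPKM, fragments relative to the length of the gene and the size of the library, and differences are on the log2(FPKM + 0.5) scale, which understates the change of a gene near 0. Libraries held 15011668 to 21966351 fragments. Markers of glioma stem-like cells summed to 753 to 1474 FPKM in the mutant lines and 936 to 1137 FPKM in the WT lines, led by Fabp7. The 10 markers of microglia and leukocytes summed to 0.801 to 2.57 FPKM in the mutant lines and 0.920 to 6.43 FPKM in the WT lines. The 6 endothelial markers summed to 0.152 to 2.28 FPKM in the mutant lines and 0.505 to 2.40 FPKM in the WT lines. Of these lists, 2 and 1 genes were at 0 in every library. Mural and fibroblast markers summed to 0.777 to 11.2 FPKM in the mutant lines and 0.760 to 2.37 FPKM in the WT lines, and neuronal markers to 0.283 to 8.51 FPKM and 2.38 to 4.84 FPKM in mutant and WT lines. Astrocyte markers (6, led by Slc1a3) summed to 39.6 to 75.6 FPKM in the mutant lines and 75.5 to 107 FPKM in the WT lines. Oligodendrocyte markers (6, nearly all of it Cnp) summed to 8.17 to 17.2 FPKM in the mutant lines and 17.3 to 30.9 FPKM in the WT lines. The part of these marker differences in the levels below was not tested.

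Myc (ENSMUSG00000022346, chromosome 15, 61985391 to 61990374 on the plus strand in GRCm38) was the most abundant member in all 4 mutant lines, and came after Mxi1 in the 3 WT lines. Its 3 libraries read 127, 138 and 137 FPKM in PIC144-1 and 50.7, 49.0 and 50.7 FPKM in PIC144-3. They read 277, 251 and 285 FPKM in PIC496-4 and 55.2, 64.1 and 55.1 FPKM in PIC496-3. In the WT lines they read 27.7, 23.0 and 25.4 FPKM in PC134-0, 28.1, 27.9 and 32.6 FPKM in PC308-1, and 30.0, 27.5 and 31.7 FPKM in PC326-1. Thus 2 mutant lines, 1 of each number, stood far above the other lines, and the lowest mutant library lay above the highest WT library. The mutant lines averaged 128 ± 102 FPKM (SD, n = 4 lines) and the WT lines 28.2 ± 2.46 FPKM (SD, n = 3 lines), a log2 difference of 1.83. Library ranges of lines overlapped only among the WT lines. PC326-1 overlapped PC308-1, its neighbour in the order of levels. Its lowest library, at 27.5 FPKM, also lay below the highest of PC134-0, at 27.7 FPKM. Over the 7 lines Myc spanned 3.39 on the log2 scale, a wider span than that of 97.1% of the 13379 genes that were tested, whose median span was 0.88. Those 13379 genes had a line mean of at least 0.5 FPKM in at least 3 lines, and all 10 members were among them.

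Mycn (ENSMUSG00000037169, chromosome 12, 12936093 to 12941914 on the minus strand) was the scarcest member. Its libraries read 0.146, 0.420 and 0.281 FPKM in PIC144-1, against 0.929, 1.27 and 0.790 FPKM in PIC144-3. In PIC496-4 they held 2, 0 and 2 fragments (0.0367, 0 and 0.0329 FPKM, where a count of 0 allows up to 0.0499 FPKM), against 143, 149 and 149 fragments (2.72, 2.37 and 2.77 FPKM) in PIC496-3. Line means in the WT lines were 0.423 FPKM in PC134-0, 1.59 FPKM in PC308-1 and 0.557 FPKM in PC326-1. The 2 lines with the most Myc thus had the lowest mean Mycn, and the libraries did not overlap within either pair. The libraries of PIC144-1 did overlap those of the WT line PC134-0, which read 0.326 to 0.493 FPKM. The difference was -0.94 ± 0.15 (log2 ± SE) for PIC144-1 minus PIC144-3, with an adjusted p of 2.34e-05, and -2.58 ± 0.15 for PIC496-4 minus PIC496-3, with an adjusted p of 3.46e-11 (limma over libraries, Benjamini-Hochberg over all tested genes). On these 2 tests, 30% and 26.4% of all tested genes were lower. Mycn averaged 0.981 ± 1.17 FPKM in the mutant lines and 0.857 ± 0.640 FPKM in the WT lines, which overlapped. In bulk RNA, fewer cells with a transcript and less of it per cell cannot be told apart.

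Mycl (ENSMUSG00000028654, chromosome 4, 122995652 to 123002485, plus strand), a paralogue with a weaker activating domain, was measured at 1.72 to 4.79 FPKM in the mutant lines and 3.70 to 9.32 FPKM in the WT lines. It was highest in PC308-1, at 9.64, 9.12 and 9.21 FPKM, and lowest in PIC496-4, at 2.04, 1.64 and 1.49 FPKM, so the line with the most Myc had the least of both paralogues. PIC496-4 lay below PIC496-3 by 1.26 on the log2 scale (difference -1.26 ± 0.14, adjusted p = 4.71e-07, limma). For PIC144-1 minus PIC144-3 the difference was -0.29 ± 0.14 with an adjusted p of 0.0838 in the same fit. The share of Myc in the summed FPKM of the 3 paralogues was 97.8% in PIC144-1, 91.9% in PIC144-3, 99.4% in PIC496-4 and 88.7% in PIC496-3. In the WT lines it was 85.2% in PC134-0, 73.0% in PC308-1 and 87.5% in PC326-1.

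**Figure D1:**
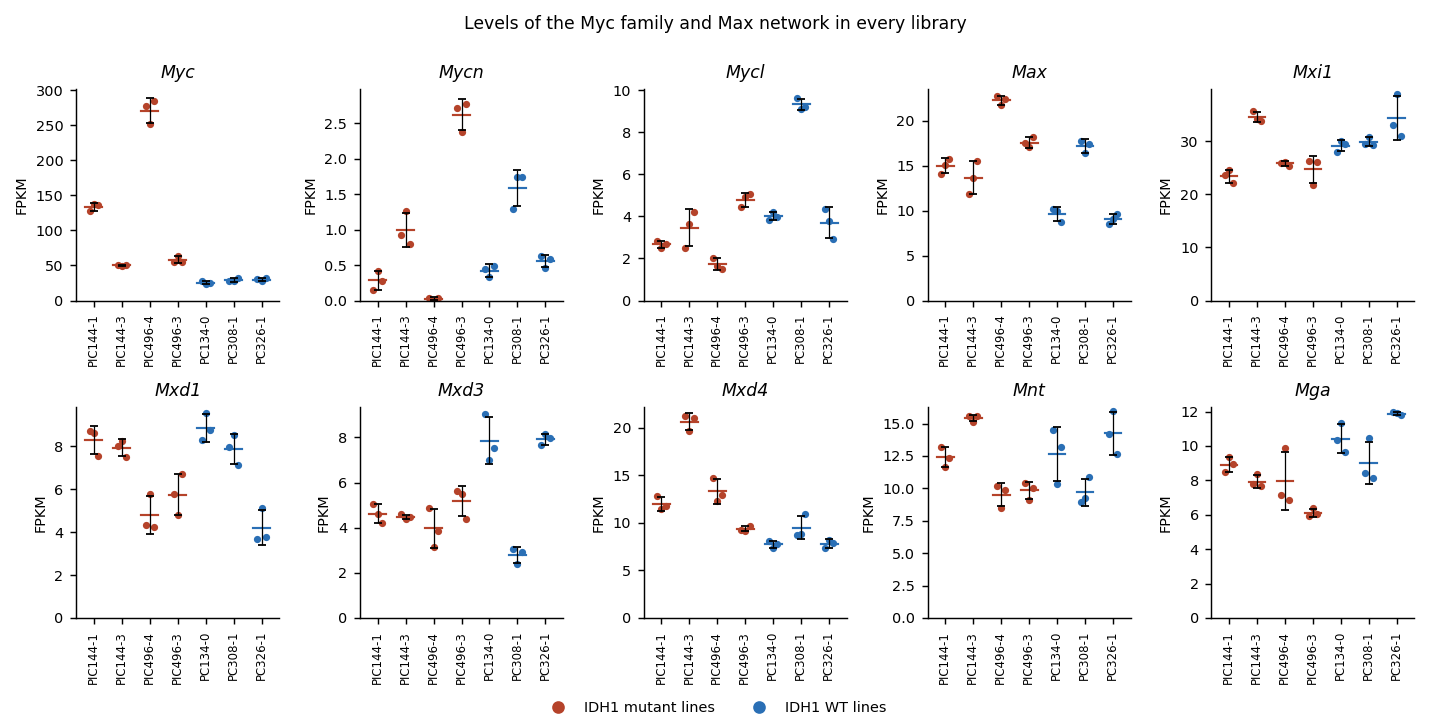
FPKM of each of the 10 genes by line, with 1 point per library, a coloured bar at the mean of 3 libraries and black error bars of 1 SD (red, IDH1 mutant lines; blue, IDH1 WT lines; each axis starts at 0). Myc reaches 271 FPKM in PIC496-4 and 133.9 FPKM in PIC144-1, the 2 lines in which mean Mycn is lowest, while Mxi1 and Mnt vary less.

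Max (ENSMUSG00000059436, chromosome 12, 76937269 to 76962201, minus strand), the shared partner of the network, varied far less than Myc. It read 14.1, 15.1 and 15.7 FPKM in PIC144-1, 11.9, 13.6 and 15.5 FPKM in PIC144-3, 22.7, 21.7 and 22.4 FPKM in PIC496-4 and 17.5, 17.02 and 18.2 FPKM in PIC496-3. In the WT lines it read 10.2, 9.95 and 8.77 FPKM in PC134-0, 17.8, 16.4 and 17.4 FPKM in PC308-1, and 8.51, 9.02 and 9.62 FPKM in PC326-1. PIC496-4 was highest, and PC308-1 lay among the mutant lines. PIC496-4 exceeded PIC496-3 by 0.33 ± 0.08 (adjusted p = 0.00163, limma), a direction in which 25.1% of all tested genes passed. For PIC144-1 minus PIC144-3 the difference was 0.13 ± 0.08 (adjusted p = 0.164, limma), and with FPKM rescaled to TPM that difference became 0.23 and passed.

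In the WT lines, Max stood on the same side of the 7-line mean as the median of its chromosome. Relative to the 7-line mean, the median of the 486 other tested genes of chromosome 12 was 0.49 higher in PC308-1, 0.48 lower in PC134-0 and 0.48 lower in PC326-1 (log2 values of 0.49, -0.48 and -0.48). Max itself stood at 0.26, -0.55 and -0.63 in those WT lines. In PIC144-1, PIC144-3, PIC496-4 and PIC496-3 Max stood at 0.06, -0.06, 0.62 and 0.29, with chromosome medians of -0.03, -0.03, 0.25 and 0.24. With the chromosome median subtracted it stood at 0.37 in PIC496-4, 0.05 in PIC496-3, 0.10 in PIC144-1 and -0.03 in PIC144-3, and at -0.23 in PC308-1, -0.06 in PC134-0 and -0.15 in PC326-1. The nearer surroundings were less level between PIC496-4 and PIC496-3. The median of the 24 tested genes within 2 Mb of Max stood at 0.43 in PIC496-4 and 0.28 in PIC496-3. It stood at -0.24 in PIC144-1 and 0.0091 in PIC144-3, and at 0.56 in PC308-1, -0.50 in PC134-0 and -0.60 in PC326-1. The number of gene copies was not measured here, and whether it differs between the lines was not tested. Mycn lies on the same chromosome, and its low level in PIC496-4, at -1.22 relative to the 7-line mean, went against a chromosome median of 0.25. The nearest tested protein-coding genes on both sides of Mycn did not share one pattern: Ddx1, a helicase gene whose start lies at 281 kb from that of Mycn, was at 43.1 FPKM in PIC496-4 against 34.7 FPKM in PIC496-3. Fam49a, at -674 kb on the other side, was at 0.197 FPKM in PIC496-4 against 2.45 FPKM in PIC496-3.

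**Figure D2:**
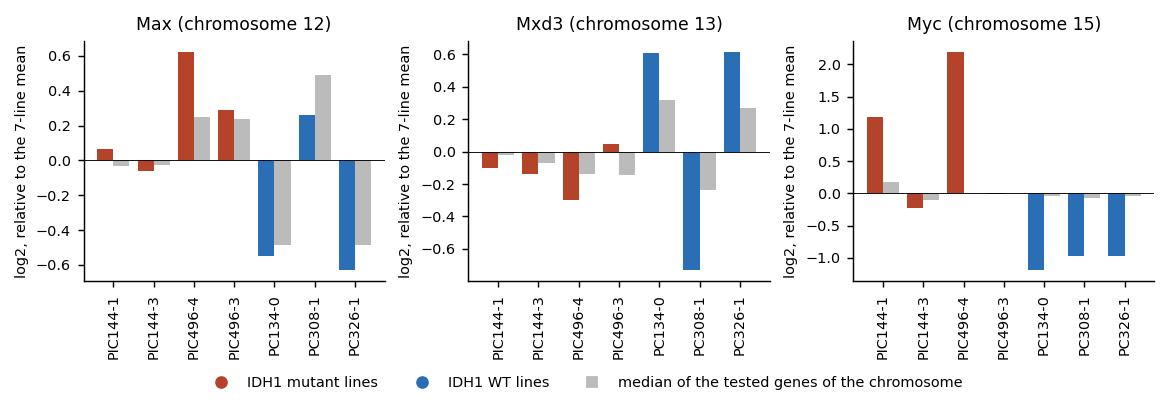
Level of Max, Mxd3 and Myc in each line (red, IDH1 mutant; blue, IDH1 WT) beside the median of the tested genes of the same chromosome (grey), both as log2(FPKM + 0.5) relative to the 7-line mean. For Max and Mxd3 the member and its chromosome lie on the same side of 0 in all 3 WT lines, while the chromosome 15 median stays between -0.11 and 0.17 in lines where Myc ranges from -1.19 to 2.20.

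Among the Mxd repressors, which recruit SIN3 and histone deacetylases, Mxi1 (ENSMUSG00000025025, chromosome 19) was the most abundant. It was measured at 23.4, 34.6, 25.8 and 24.7 FPKM in PIC144-1, PIC144-3, PIC496-4 and PIC496-3, and at 29.2, 29.9 and 34.4 FPKM in the WT lines PC134-0, PC308-1 and PC326-1. PIC144-1 lay below PIC144-3 by 0.55 on the log2 scale (difference -0.55 ± 0.08, adjusted p = 6.35e-06, limma), while PIC496-4 minus PIC496-3 was 0.07 ± 0.08 (adjusted p = 0.493). The median of the 13 tested genes within 2 Mb of Mxi1 stood at -0.24 in PIC144-1 and 0.23 in PIC144-3, on the same sides of 0 as Mxi1. The sides also matched in PIC496-3 and PC326-1. They were opposite in PIC496-4, PC134-0 and PC308-1, where the median stood at 0.08, -0.13 and -0.18 and Mxi1 at -0.14, 0.03 and 0.06. The median of the 436 other tested genes of chromosome 19 stood at -0.02, -0.06 and -0.16 in those lines. The side in PIC496-4 thus depended on the window. Mxd4 (ENSMUSG00000037235, chromosome 5, 34173883 to 34187720, minus strand) read 12.8, 11.4 and 11.7 FPKM in PIC144-1 and 21.2, 19.6 and 21.02 FPKM in PIC144-3, the highest line. It read 14.7, 12.2 and 12.9 FPKM in PIC496-4 and 9.28, 9.14 and 9.67 FPKM in PIC496-3. The 2 pairs of lines thus moved in opposite directions, at -0.76 ± 0.08 (adjusted p = 2.34e-07) and 0.48 ± 0.08 (adjusted p = 6.38e-05, both limma). The WT lines had 7.72 to 9.48 FPKM of Mxd4.

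Mxd1 (ENSMUSG00000001156, chromosome 6, 86647042 to 86669161, minus strand), a repressor of differentiating cells, was at 8.30, 7.93, 4.79 and 5.76 FPKM in PIC144-1, PIC144-3, PIC496-4 and PIC496-3. In the WT lines it was at 8.86, 7.87 and 4.21 FPKM in the WT lines PC134-0, PC308-1 and PC326-1. Neither pair of mutant lines passed the test, with differences of 0.06 ± 0.13 (adjusted p = 0.713) and -0.24 ± 0.13 (adjusted p = 0.127, limma). Mxd3 (ENSMUSG00000021485, chromosome 13, 55325168 to 55329823, minus strand), known from proliferating progenitors, was at 4.62, 4.48, 3.97 and 5.17 FPKM in the mutant lines in the same order, against 7.86, 2.80 and 7.92 FPKM in the WT lines PC134-0, PC308-1 and PC326-1. Its lines differed among the WT lines (limma F test, adjusted p = 2.35e-08) and did not pass among the mutant lines (adjusted p = 0.0918). The median of chromosome 13 stood at 0.32, -0.24 and 0.27 in those 3 WT lines, on the same sides of 0 as Mxd3. PIC496-4 minus PIC496-3 was -0.35 ± 0.13 for Mxd3 (adjusted p = 0.0248, limma), a call lost without a filter on low values, with quantile normalization and without replicate 2 or 3. Mxd3 overlaps Prelid1 on the opposite strand, a gene that reached 165 FPKM, and the use of strand in counting is not given in the sources used here, so its level is uncertain.

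Mnt (ENSMUSG00000000282, chromosome 11, 74830920 to 74845725, plus strand), the broadly expressed Max partner that opposes MYC, spanned 1.62-fold over the lines. It was at 12.4, 15.4, 9.52 and 9.85 FPKM in PIC144-1, PIC144-3, PIC496-4 and PIC496-3 and at 12.7, 9.69 and 14.3 FPKM in the WT lines PC134-0, PC308-1 and PC326-1. PIC144-1 minus PIC144-3 was -0.31 ± 0.11 (adjusted p = 0.0216, limma), a call lost with TPM and without replicate 1 or 3. Mga (ENSMUSG00000033943, chromosome 2, 119897228 to 119969581, plus strand), a very large protein that joins MAX to the variant Polycomb complex PRC1.6, was at 8.92, 7.93, 7.98 and 6.12 FPKM in PIC144-1, PIC144-3, PIC496-4 and PIC496-3, and at 10.4, 9.01 and 11.9 FPKM in the WT lines PC134-0, PC308-1 and PC326-1. Its line means were lower in every mutant line than in every WT line, but libraries of the genotypes overlapped. The highest library was at 9.33 FPKM in PIC144-1 and 8.34 FPKM in PIC144-3, and PIC496-4 read 7.15, 9.91 and 6.88 FPKM. The lowest library was at 8.16 FPKM in PC308-1 and 9.65 FPKM in PC134-0. PIC496-4 minus PIC496-3 was 0.34 ± 0.11 (adjusted p = 0.0121, limma), a call lost with TPM and without replicate 1. The median of the 66 tested genes within 2 Mb of Mga stood at 0.31 in PC134-0 and 0.29 in PC326-1, the WT lines with the most Mga. It stood at -0.06 in PC308-1, and at -0.09 in PIC144-1, -0.44 in PIC144-3, -0.0083 in PIC496-4 and -0.02 in PIC496-3, the line with the least Mga.

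Line means of 2 members did not overlap between genotypes, Myc being higher and Mga lower in the mutant lines. Of all tested genes, 6.82% had all mutant lines above all WT lines and 6.43% had them below. Among the 9 members other than Myc, 8 differed among the mutant lines and 9 among the WT lines (limma F test over libraries, adjusted p under 0.05), where 80.7% and 61.4% of all tested genes passed. With backgrounds this high, the counts are not read as particular to the family. Among WT lines, the F test was lost for Mxi1 without a filter, with TPM and when any replicate was left out, for Mga with TPM and without replicate 1 or 3, and for Mxd4 without replicate 3. Among mutant lines it was lost for Mga without replicate 1, and gained for Mxd3 with TPM and with the replicate number as a block.

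Set against its partner and its opponents, the family was tipped furthest in the 2 lines with the most Myc. The summed FPKM of Myc, Mycn and Mycl was 9.15, 4.00, 12.2 and 3.73 times that of Max in PIC144-1, PIC144-3, PIC496-4 and PIC496-3. In PC134-0, PC308-1 and PC326-1 it was 3.096, 2.35 and 3.76 times that of Max, so PIC144-3 and PIC496-3 lay near the WT lines on this ratio. Over the summed FPKM of the 6 repressors (Mxi1, Mxd1, Mxd3, Mxd4, Mnt and Mga), the ratio was 1.96, 0.601, 4.17 and 1.08 in the mutant lines in that order, against 0.388, 0.588 and 0.422 in the WT lines. The repressors summed to 69.7, 91.0, 65.4 and 61.0 FPKM in the mutant lines and 76.8, 68.8 and 80.5 FPKM in the WT lines. These are ratios of messenger RNA and not of protein, and they carry the Myc values on which the family was selected.

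**Figure D3:**
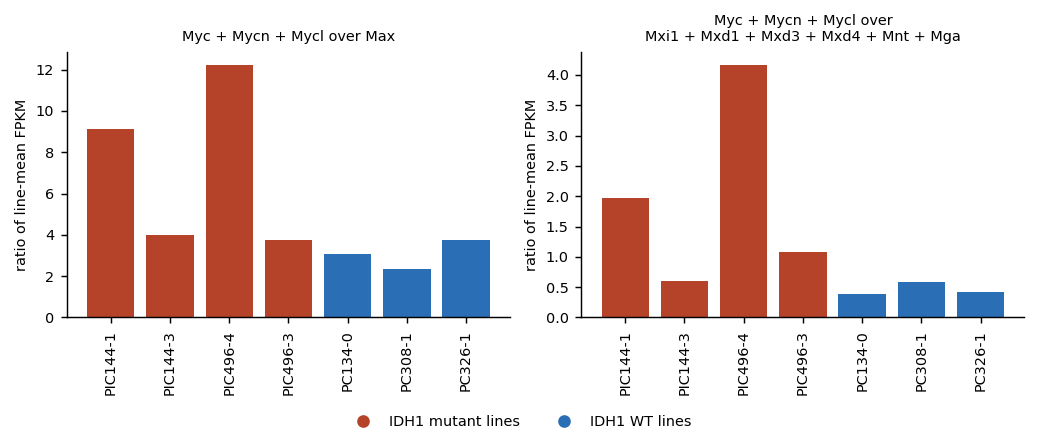
Ratio of the summed line-mean FPKM of Myc, Mycn and Mycl to Max (left) and to the 6 repressors (right) in each line, with IDH1 mutant lines in red and IDH1 WT lines in blue. PIC496-4 has the highest and PIC144-1 the next highest bar in both panels, while PIC144-3 is at 4.00 on the left, near the WT line PC326-1 at 3.76.

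The genes beside Myc separated the 2 lines with the most Myc. Pvt1, a long noncoding RNA gene that starts 52.6 kb beyond the start of Myc and is often amplified together with it in tumours, read 23.9, 23.1 and 24.1 FPKM in PIC144-1 and 3.38, 3.30 and 3.28 FPKM in PIC144-3. It read 121, 120 and 121 FPKM in PIC496-4 and 5.72, 4.96 and 5.27 FPKM in PIC496-3. The WT lines averaged 3.86, 4.23 and 4.81 FPKM. Pvt1 was thus high in the lines where Myc was highest and near the WT level in PIC144-3 and PIC496-3. PIC144-1 exceeded PIC144-3 by 2.66 (adjusted p = 5.87e-14), and PIC496-4 exceeded PIC496-3 by 4.38 (adjusted p = 3.25e-17, both limma, log2). Of all tested genes, 28.2% were higher in the first comparison and 25.1% in the second.

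Fam84b and Fam49b were the nearest tested protein-coding genes on either side of Myc. Fam84b, at -1.17 Mb from the start of Myc, was at 34.6 FPKM in PIC144-1 and 4.09 FPKM in PIC144-3 (log2 difference 2.94, adjusted p = 1.98e-14), but at 4.27 FPKM in PIC496-4 against 5.96 FPKM in PIC496-3 (-0.44, adjusted p = 0.000832, limma). Fam49b, 1.94 Mb after the start of Myc, was at 84.5 FPKM in PIC144-1 and 6.996 FPKM in PIC144-3 (3.50, adjusted p = 7.63e-18), and at 8.66 FPKM in PIC496-4 against 9.65 FPKM in PIC496-3 (-0.15, adjusted p = 0.0476, limma). Both neighbours were therefore high in PIC144-1 and in no other line.

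The raised stretch of PIC144-1 reached further on the far side of Pvt1, in genes named after their values were seen. Asap1, 2.10 Mb after the start of Myc, was at 136 FPKM in PIC144-1 and 8.09 to 13.3 FPKM in the other 6 lines. Efr3a, 3.80 Mb after it, was at 149 FPKM in PIC144-1 and 9.02 to 11.6 FPKM in the others. The next tested protein-coding genes on the outside did not share the rise: Trib1, at -2.34 Mb from the start of Myc, was at 13.2 FPKM in PIC144-1, and Kcnq3, 4.00 Mb after it, at 0.904 FPKM, both inside the range of the WT lines or below it. All 6 tested genes from Fam84b to Efr3a, Myc and Pvt1 included, were at least 2.23 above the mean of the WT lines in PIC144-1 (log2). In PIC496-4 only Myc and Pvt1 of these 6 were, at 3.25 and 4.66, and the other 4 lay between -0.50 and 0.54. DNA copy number was not measured, and its part in these levels was not tested.

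**Figure D4:**
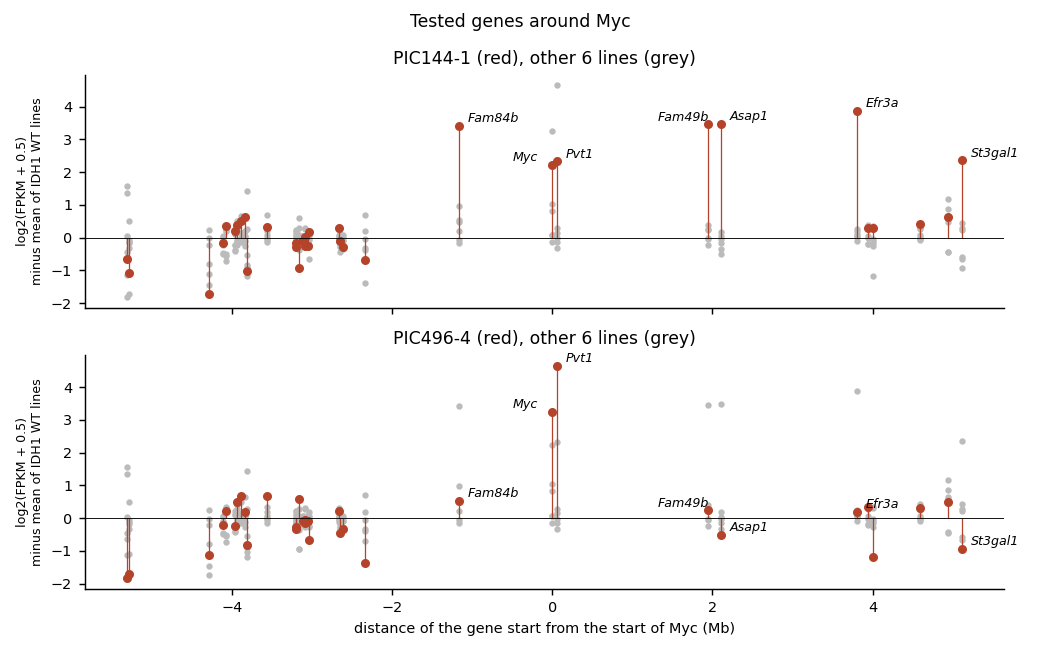
Tested genes within 6 Mb of Myc in PIC144-1 (top) and PIC496-4 (bottom), with distance of each gene start from that of Myc in Mb on the horizontal axis and log2(FPKM + 0.5) minus the mean of the IDH1 WT lines on the vertical axis; grey points are the other 6 lines. PIC144-1 is raised from Fam84b to Efr3a and again at St3gal1, and PIC496-4 at Myc and Pvt1.

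Genes known as targets of MYC were followed in lists outside the family, by counts and medians beside the same over all 13379 tested genes. Between genotypes, no member of any list passed an adjusted p of 0.05 (limma on line means, n = 4 and 3), where 0.0224% of all tested genes were higher and 0.0972% lower. At an unadjusted p under 0.05, 6.09% of all tested genes were higher and 6.7% lower. Of 35 tested nucleolar and ribosome biogenesis genes, 12 were higher at that level and 0 lower. All 35 had a positive difference, where 50.8% of all tested genes did. Their median was 0.41 against 0.0072 for all tested genes. Of 34 metabolic targets, 7 were higher and 0 lower, with a median of 0.38, or 0.22 without PIC496-4, and of 20 cell cycle targets, 2 were higher and 0 lower, with a median of 0.29. Of 19 genes known to be repressed by MYC, 0 were higher and 1 lower, with a median of 0.05, which ran from -0.14 without PC308-1 to 0.18 without PIC496-3. A positive difference was found in 31 of the 34 metabolic targets, 17 of the 20 cell cycle targets and 10 of the 19 repressed genes.

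Between lines that share a number, most nucleolar genes were higher in the line with more Myc. In PIC144-1 minus PIC144-3, 27 of the 35 passed as higher and 0 as lower (limma over libraries, adjusted p under 0.05), with a median of 0.70, while 28.2% of all tested genes passed as higher and the median of all was -0.0016. In PIC496-4 minus PIC496-3, 33 of the 35 passed as higher and 0 as lower, with a median of 0.75, while 25.1% of all tested genes passed as higher and the median of all was 0.0051. Together 26 passed as higher in both pairs, and 1677 of all tested genes did. Leaving out any replicate kept these counts at 25 to 28 and 31 to 34. Cell type markers moved in these pairs too: in PIC496-4 minus PIC496-3 the tested astrocyte markers had a median of -1.13 (1 of 5 higher, 3 lower), the glioma stem-like markers -0.69 (1 of 7 higher, 4 lower) and Cnp of oligodendrocytes -0.99. In PIC144-1 minus PIC144-3 these values were 0.20 (3 of 5 higher, 2 lower), -0.32 (0 of 7 higher, 4 lower) and -0.67. Their part in the nucleolar counts was not tested. Ddx21, a nucleolar helicase of ribosomal RNA synthesis, was at 57.9 ± 5.46 FPKM in PIC144-1, 35.6 ± 1.55 in PIC144-3, 84.0 ± 5.81 in PIC496-4 and 46.9 ± 3.28 in PIC496-3 (SD, n = 3 libraries), and the WT lines had 25.5 to 33.1 FPKM. Nop58, a core protein of box C/D ribonucleoprotein particles, was at 14.8, 13.5, 16.97 and 9.89 FPKM in the same 4 lines and 7.41 to 9.24 FPKM in the WT lines. It passed in the PIC496 pair (0.75, adjusted p = 1.31e-06) and had a difference of 0.12 in the PIC144 pair (adjusted p = 0.253, limma).

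Of 34 metabolic targets, 29 passed as higher and 1 as lower in PIC496-4 minus PIC496-3, with a median of 0.54, where 25.1% of all tested genes were higher and 26.4% lower. In PIC144-1 minus PIC144-3, 17 passed as higher and 9 as lower, with a median of 0.14, where 28.2% of all tested genes were higher and 30% lower, so the count of lower genes was near the background. That background depends on the scaling of the PIC144 pair. With FPKM rescaled to TPM, 4323 of all tested genes passed as higher and 3106 as lower, with a median of 0.09. In the main fit these numbers were 3779, 4009 and -0.0016. The difference between the pairs was not tested. Odc1, which makes putrescine and is among the classic targets of MYC, averaged 148 FPKM in the mutant lines and 68.5 FPKM in the WT lines, a difference of 1.08 ± 0.26 (adjusted p = 0.251, limma). It was nevertheless lower in the line with more Myc in both pairs, at 148 FPKM in PIC144-1 and 211 FPKM in PIC144-3, and at 102 FPKM in PIC496-4 against 131 FPKM in PIC496-3 (adjusted p = 3.47e-06 and 0.000237, limma). Odc1 lies on chromosome 12, whose median was -0.48 in both PC134-0 and PC326-1 but 0.49 in PC308-1, above every mutant line. Hspd1, a mitochondrial chaperonin, was at 352 FPKM in PIC144-1 and 477 FPKM in PIC144-3, but at 470 FPKM in PIC496-4 against 247 FPKM in PIC496-3, and the WT lines had 162 to 199 FPKM. Its pairs thus moved in opposite directions, and it was higher in all mutant lines than in all WT lines.

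Of 20 cell cycle targets, 13 passed as higher and 4 as lower in PIC144-1 minus PIC144-3, and 13 as higher and 2 as lower in PIC496-4 minus PIC496-3. Of all tested genes, 28.2% were higher and 30% lower in the first pair, and 25.1% and 26.4% in the second. Without any one of the replicates the 13 of the PIC144 pair became 7 or 8. The 2 that were lower in both pairs were the cyclin genes Ccnd1 and Ccnd2, named after their values were seen. Cdca7, a MYC-responsive gene of dividing cells, was at 23.0 FPKM in PIC144-1 and 9.29 FPKM in PIC144-3, and at 28.1 FPKM in PIC496-4 against 14.7 FPKM in PIC496-3, with 8.12 to 11.4 FPKM in the WT lines. Cks1b, a subunit that helps SCF destroy CDK inhibitors, rose in both pairs by 0.16 and 0.57 (adjusted p = 0.0230 and 1.70e-07, limma). Of the 19 genes repressed by MYC, 2 were higher and 7 lower in the PIC144 pair and 9 higher and 7 lower in the PIC496 pair, beside the same shares of all tested genes, and nothing is read from these counts. Gadd45b, a stress-response gene, was at 9.95 FPKM in the mutant lines and 15.4 FPKM in the WT lines (-0.60 ± 0.18, adjusted p = 0.303, limma), and Fth1, the ferritin heavy chain, at 1201 and 783 FPKM (0.61 ± 0.27, adjusted p = 0.396).

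**Figure D5:**
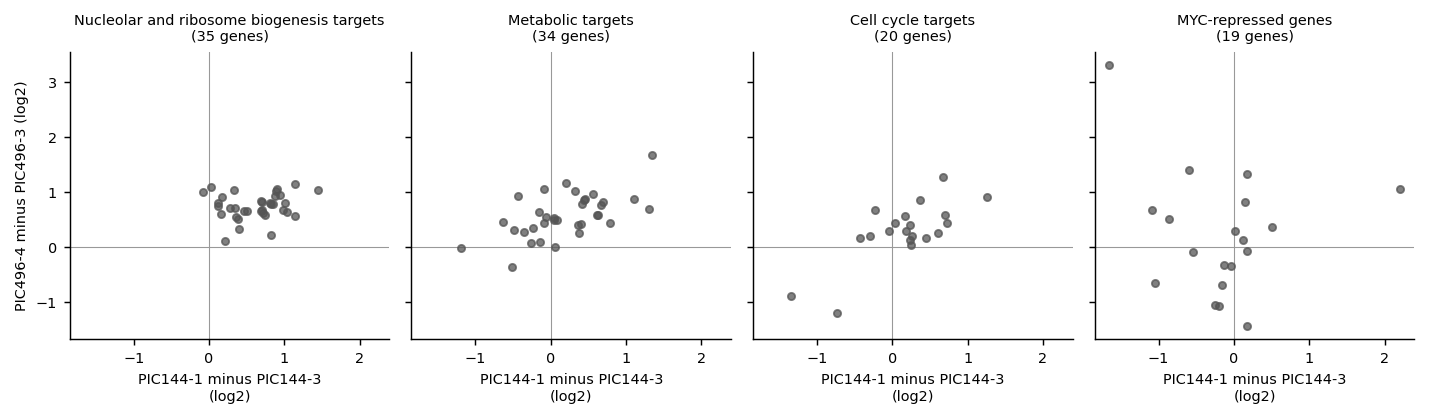
Each tested gene of 4 target lists by its log2 difference of PIC144-1 minus PIC144-3 (horizontal) and of PIC496-4 minus PIC496-3 (vertical), where the first-named line of each pair has more Myc. Nucleolar genes lie in the upper right, metabolic genes are high on the vertical axis and spread on the horizontal one, and genes repressed by MYC surround 0.

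By line, the median of the nucleolar list relative to the 7-line mean was 0.42, -0.31, 0.67 and -0.04 in PIC144-1, PIC144-3, PIC496-4 and PIC496-3. It was -0.31, -0.29 and -0.24 in PC134-0, PC308-1 and PC326-1, so PIC144-3, with more Myc than any WT line, stood at the WT level. The median of all tested genes lay between -0.0076 and 0.0046 in every line. In the same order of mutant and WT lines, the median of the 5 tested astrocyte markers was -0.42, -0.15, -0.65 and 0.20, then 0.50, -0.0024 and 0.24. That of the 7 tested glioma stem-like markers was -0.17, 0.13, -0.51 and 0.26, then 0.28, 0.07 and 0.09. Both marker lists were lowest in PIC496-4 and next lowest in PIC144-1, the lines where the nucleolar list was highest, and their part in it was not tested. These are descriptions over 7 lines, of which 2 pairs share a number.

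The E-box was looked for as CACGTG, which reads the same on both strands, in RefSeq promoters of GRCm38.p6 from 250 bases before to 50 bases after a gene's start. Of the tested genes with such a promoter, 12% held it. Myc was the only member with no entry among these promoters and was not searched. The E-box was in 3 of the 9 members with a promoter (Max, Mnt and Mxd4). It was in 7 of 29 nucleolar genes (24.1%) and in 6 of 29 metabolic genes (20.7%). In cell cycle genes it was in 3 of 16 (18.8%), and in genes repressed by MYC in 4 of 16 (25.0%). The windows of the 3 members and of 5 of the target genes that held an E-box are shown. They carry the DNA element that MYC, MXD, MNT and MGA complexes share. The E-box is in capitals, and the bases run 5′ to 3′ on the strand of the gene. A match is no evidence of binding in these cells.
Max: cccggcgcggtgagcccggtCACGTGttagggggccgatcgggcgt
Mnt: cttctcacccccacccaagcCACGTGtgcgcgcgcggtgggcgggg
Mxd4: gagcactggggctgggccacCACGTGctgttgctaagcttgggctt
Nop2: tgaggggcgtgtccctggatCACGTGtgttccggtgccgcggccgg
Imp4: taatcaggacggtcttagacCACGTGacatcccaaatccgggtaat
Ldha: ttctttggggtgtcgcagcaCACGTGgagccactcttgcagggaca
Hspd1: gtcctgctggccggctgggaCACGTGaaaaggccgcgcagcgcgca
Cdk4: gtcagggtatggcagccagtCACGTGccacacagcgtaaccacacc

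The Max window lies at chr12:76962226-76962271 on the minus strand, the Mnt window at chr11:74830781-74830826 on the plus strand and the Mxd4 window at chr5:34187904-34187949 on the minus strand. Those of the targets lie at chr6:125131803-125131848 (Nop2, plus), chr1:34439688-34439733 (Imp4, plus), chr7:46845639-46845684 (Ldha, plus), chr1:55088298-55088343 (Hspd1, minus) and chr10:127063343-127063388 (Cdk4, plus). The first base of the E-box is at -3 in Max, -123 in Mnt, -219 in Mxd4, -60 in Nop2, -121 in Imp4, -145 in Ldha, -80 in Hspd1 and -172 in Cdk4, counted from the RefSeq start of the promoter that held it. The Cdk4 promoter held 4 copies and this Ldha promoter 2, of which the first is shown. Ldha and Hspd1 each have another RefSeq promoter, which held no E-box. Genes with the same element had unlike levels: in PIC496-4 minus PIC496-3, Nop2, a ribosomal RNA methyltransferase, differed by 0.80 (adjusted p = 3.68e-10), Imp4, a ribosomal RNA processing factor, by 0.66 (adjusted p = 2.78e-06) and Ldha, lactate dehydrogenase A, by 0.53 (adjusted p = 1.58e-08). Cdk4, the kinase of D-type cyclins, differed by 0.04 (adjusted p = 0.627, limma). In PIC144-1 minus PIC144-3 the same 4 genes differed by 0.12, 0.47, 0.04 and 0.25 (adjusted p = 0.0558, 0.000118, 0.481 and 0.00476, limma). Hspd1 differed by 0.93 in PIC496-4 minus PIC496-3 (adjusted p = 2.58e-11) and by -0.44 in PIC144-1 minus PIC144-3 (adjusted p = 9.43e-07, both limma).

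Genes that work with or on MYC were read from further lists, without any member passing between genotypes. At an unadjusted p under 0.05 (limma on line means), 6.09% of all tested genes were higher and 6.7% lower. Of 18 cofactors, 1 was higher at that level and 0 lower, so nothing is read from the count. Of these, 10 passed as higher and 2 as lower in the PIC144 pair and 7 as higher and 2 as lower in the PIC496 pair, where 28.2% and 25.1% of all tested genes were higher and 30% and 26.4% lower. Kat2a, a histone acetyltransferase that MYC recruits, was at 32.3 FPKM in the mutant lines and 22.4 FPKM in the WT lines (0.48 ± 0.22, adjusted p = 0.401) and rose in both pairs, by 0.86 and 0.43 (adjusted p = 1.32e-07 and 0.000403, limma). Actl6a, a BAF complex subunit, was at 17.6 and 12.2 FPKM in mutant and WT lines (0.49 ± 0.17, adjusted p = 0.344, limma).

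Of 21 genes of MYC protein turnover, 2 were higher and 1 lower at the unadjusted level, beside 6.09% and 6.7% of all tested genes. Nothing is read from these counts. Fbxw7, the ubiquitin ligase subunit that marks MYC for destruction, was at 5.72 FPKM in the mutant lines and 3.98 FPKM in the WT lines (0.48 ± 0.15, adjusted p = 0.311), with pair differences of -0.02 and 0.07 (adjusted p = 0.862 and 0.567, limma). Usp36, a nucleolar deubiquitinase that stabilises MYC, was at 10.4 and 6.38 FPKM in mutant and WT lines (0.62 ± 0.23, adjusted p = 0.363) and rose in both pairs, by 0.87 and 0.55 (adjusted p = 3.33e-09 and 1.52e-06, limma). Of 12 tested genes for proteins that bind Myc messenger RNA, 2 were higher and 0 lower at the unadjusted level. The shares of all tested genes were again 6.09% and 6.7%. Igf2bp2, which protects Myc messenger RNA from decay, was at 5.71, 6.26, 1.75 and 6.72 FPKM in PIC144-1, PIC144-3, PIC496-4 and PIC496-3, and at 0.622, 0.348 and 1.81 FPKM in the WT lines PC134-0, PC308-1 and PC326-1 (1.97 ± 0.50, adjusted p = 0.267, limma on line means). Igf2bp2 in PIC496-4 and PC326-1 was nearly the same, and that difference was not tested. Hnrnpd, an RNA decay factor, was at 28.5 and 19.1 FPKM in mutant and WT lines (0.55 ± 0.17, adjusted p = 0.292).

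The corepressors that MXD, MNT and MGA recruit were also followed. Of 17 SIN3 and NCOR genes, 0 were higher and 0 lower at an unadjusted p under 0.05 (limma), where 6.09% and 6.7% of all tested genes were, so nothing is read from the count. Sin3a, the scaffold bound by MXD proteins, was at 25.9 FPKM in the mutant lines and 22.4 FPKM in the WT lines, and Suds3, a subunit of the same complex, at 5.78 and 4.86 FPKM. Of 10 PRC1.6 genes, 1 was higher and 0 lower, L3mbtl2, at 5.95 and 4.04 FPKM in mutant and WT lines (0.50 ± 0.14, adjusted p = 0.287). Pcgf6, the PRC1.6 subunit that defines the complex, was at 8.02 and 4.95 FPKM (0.59 ± 0.26, adjusted p = 0.392) and rose in both pairs of lines, by 0.47 and 1.06 (adjusted p = 0.00282 and 7.11e-07, limma). Of 16 germline genes that MGA and PRC1.6 are known to silence, 14 were under the filter, and their highest line mean was 1.02 FPKM, in Tex101. Stag3 was at 1.65 and 1.76 FPKM and Tdrkh at 14.7 and 13.8 FPKM in mutant and WT lines. Mlx and Mlxip, of the parallel glucose-sensing branch, were at 19.2 and 15.1 FPKM and at 5.22 and 5.40 FPKM, and Mlxipl was under the filter at 0.119 FPKM or less.

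Over the 7 lines the genes whose log2 level followed Myc most closely were Timm8a1, a mitochondrial import factor (Pearson's r 0.99), Vars, a valyl-tRNA synthetase (0.99), Rab26os, Mrto4-ps1 and Usp44 (0.99 each). Vars was at 65.0, 44.9, 84.3 and 52.3 FPKM in PIC144-1, PIC144-3, PIC496-4 and PIC496-3 and at 35.1, 37.8 and 40.4 FPKM in the WT lines PC134-0, PC308-1 and PC326-1, in the same order as Myc. Mrto4-ps1 is a processed pseudogene that can share reads with Mrto4, so its value is uncertain. Running most against Myc were Pcsk5 (-0.99), Sgpl1, the sphingosine phosphate lyase (-0.99), Lgalsl (-0.99), Peli2 (-0.99) and Grid1 (-0.98). Sgpl1 was at 13.1, 19.9, 10.9 and 19.3 FPKM in the mutant lines in that order, against 27.2, 27.2 and 24.2 FPKM in the WT lines. Closest to Mycn were Hspb3 (0.99), Olig1, an oligodendrocyte lineage factor (0.98), Coa4 (0.97), Chpt1 (0.96) and Adgrb1 (0.96). Olig1 was at 418, 482, 310 and 720 FPKM in the mutant lines, against 412, 620 and 417 FPKM in the WT lines, and Adgrb1, an adhesion receptor of brain, at 0.217, 1.91, 0.0366 and 36.8 FPKM against 1.85, 11.9 and 1.25 FPKM. Running against Mycn were Rad50 (-0.97), Ahnak (-0.97), Zfp493 (-0.95), Kyat3 (-0.94) and Zbed5 (-0.94). These genes were picked as the extremes of 13379 over 7 points, so the values describe the lines and are not tests.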

How the data were processed

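Polyadenylated RNA of 21 libraries was sequenced in pairs from strand-specific libraries, per the labels' protocols, and the submitters' processing notes name HISAT2 and mm39. The authors deposited FPKM per gene; for the counter, the annotation and the use of strand, the sources used here give nothing. The deposited gene positions follow GRCm38: 54409 of 54532 gene IDs were found in GENCODE M21 and 53462 had its coordinates, the members except Mxi1 included. All 1059490 values under 1000 fragments came out as whole fragments (tolerance 0.05), and intervals and floors (3 fragments) cover counting error only. Recovered gene totals and the library sizes implied by the FPKM differed by a factor of 0.957 to 1.05.

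Tests used log2(FPKM + 0.5) in R 4.3.3 with limma 3.58.1 (trend, robust) on 13379 genes with a line mean of at least 0.5 FPKM in at least 3 lines, with Benjamini-Hochberg adjusted p under 0.05: line means between genotypes, and libraries between lines of a genotype. The scripts were tested on simulated data. Members and gene lists were chosen with earlier results of these data known. Beyond the members, the 2 genes with the smallest p of each list were named, the 5 genes most like and unlike Myc and Mycn without predicted or clone symbols, the nearest named tested genes to Myc and Mycn with Pvt1, and the most abundant cell type marker; others are said to be named after their values were seen, or were shown for their E-box. Figures were drawn with matplotlib 3.10.9. Alternatives were other pseudocounts (0.1 and 1), filters, TPM, quantile normalization, eBayes settings, a random effect of line, a replicate block, lines sharing a number averaged, and leaving out a line or a replicate. Added after seeing the data was limma voom on recovered fragments summed per line. Libraries of a line differed by more than counting noise (chi-square of 3.79 to 26.9 per gene), and each was counted.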

Additional observations from a re-analysis of the deposited data

Results flagged for a closer look

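Among the 4 IDH1 mutant lines, PIC144-1 stood far from the other 3 for both protein-coding neighbours of Myc. Fam84b was at 34.6 FPKM there, a gap of 0.939 of the range of the 4 lines, and Fam49b at 84.5 FPKM, a gap of 0.966 of the range. Chance flags about 1 in 20 groups of values. The rule was run on the 10 members, on neighbours of Myc and Mycn and on the genes named from the lists. With that many groups, some flags are expected by chance. No value of the 10 members or of the genes named from the lists was flagged in this way.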

How the results depend on the processing

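The number of genes changed between genotypes was small and unstable. It was 16 in limma on line means (1712 at an unadjusted p under 0.05), 3 with no filter, 8 with line-mean FPKM of at least 2, 4 with lines sharing a number averaged, 552 with 21 libraries and the line as a random effect, and 440 when the replicate number was added to that fit as a block. It was 9 without PIC144-1, 10 without PIC496-3, 5 without PIC496-4 and 29 without PC308-1. It was 0 in limma without PC134-0 (with 693 genes at an unadjusted p under 0.05), 0 when PC326-1 was left out (923) and 0 with limma voom (1564), against 15 to 18 without a replicate. The log2 difference of Myc between genotypes was 1.36 without PIC496-4 and 2.17 without PIC144-3, its lowest and highest value over all alternatives. The Mxd3 difference of PIC144-1 minus PIC144-3 ran from -0.0048 to 0.096 without a replicate, and the Mxi1 difference of PIC496-4 minus PIC496-3 from -0.029 to 0.12, so neither had a stable direction. The genotype differences of Mycn, Mxd1 and Mnt, at -0.11, -0.03 and -0.06, changed sign under some alternatives by less than the spread between lines. The other differences of members between lines kept their direction in all alternatives run, and most that lost or gained a call are given in the report. Calls were also gained for Mycl (-0.51) in PIC144-1 minus PIC144-3 without replicate 1, for Mga (0.16) there without replicate 2, and for Mxd1 (-0.49) in PIC496-4 minus PIC496-3 without replicate 2. The replicate numbers do not pair the libraries: same-numbered libraries of different lines had a mean r of 0.0298 in their deviations from the line mean (-0.124 to 0.292). Depth limits Mycn, with 4 fragments in all of PIC496-4.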
